A study of Homo sapiens with 16 samples.

Results

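The clustered protocadherins are a family of cell-surface adhesion genes that lie side by side on human chromosome 5 in an alpha, a beta and a gamma cluster. Members were the protein-coding genes whose symbols name them as PCDHA, PCDHAC, PCDHB, PCDHGA, PCDHGB or PCDHGC with a number, 53 of 19974 protein-coding genes: 15 alpha, 16 beta and 22 gamma. No measured value entered this choice. Their accessibility was read from ATAC-seq, in which Tn5 transposase cuts open chromatin, in IMR90 cells, which are human lung fibroblasts. All 16 libraries came from cells infected with a retrovirus carrying ΔB-RAF:ER, a truncated B-RAF kinase fused to an estrogen receptor domain that 4-hydroxy-tamoxifen (4-OHT) switches on. The groups were Raf-inactive normoxia, Raf-active normoxia, Raf-inactive hypoxia and Raf-active hypoxia, with 4 replicates each, and hypoxia was 0.5% O2. The labels carry 1 treatment text for all libraries and do not say which groups received 4-OHT or for how long. They also do not say whether replicates were separate cultures, so a p-value here speaks of the spread between these libraries alone, part of which may be technical.

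Clustered protocadherins are best known in neurons, where each cell switches on a few members and the mix on its surface acts as an identity tag through binding between like molecules. Each alpha and gamma member has its own promoter and first exon, which is spliced to exons shared by the whole cluster, whereas beta members are single-exon genes. A promoter is chosen when CTCF and cohesin loop it to a distant enhancer, and DNA methylation keeps the others closed. The last members of the alpha and gamma clusters, PCDHAC1, PCDHAC2, PCDHGC3, PCDHGC4 and PCDHGC5, are called C-types and are less subject to this choice.

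Most of these promoters share a short conserved element around the letters CGCT just upstream of the start. The windows printed here, 30 bases each on the plus strand, were taken from RefSeq promoter sequences (GRCh38.p14, the hg38 assembly) and were chosen after the values were seen. They show an alpha promoter with no called peak, the 1 alpha promoter with one, and beta promoters with and without peaks. From gamma they show the 2 strongest promoters by fold, 1 with peaks mainly in Raf-active cells, and the 1 with no called peak. Capitals mark CGCT.
PCDHA1, chr5:140786088-140786117: tggccacatgatgtCGCTgtacaccacaaa
PCDHAC1, chr5:140926222-140926251: ctagaaggtgtggtCGCTcacgttcaccgt
PCDHB2, chr5:141094546-141094575: gagacgcggggtggCGCTgcagccttagaa
PCDHB13, chr5:141213867-141213896: aggacgcgtggtggCGCTgcaggataagaa
PCDHB15, chr5:141245316-141245345: acaacgcatggtggCGCTgcaggctaaggc
PCDHGB3, chr5:141370164-141370193: gaggcgccgggtgcCGCTcttggctagtgc
PCDHGA6, chr5:141373837-141373866: aggactctaagcgtCGCTgttgaccaacct
PCDHGC3, chr5:141475882-141475911: gggactctgtgtgcCGCTgtcggccaatga
PCDHGC4, chr5:141484954-141484983: ctgagcccgggagcCGCTgtctgccaatcg

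A promoter sequence of 250 bases before to 50 bases after the start was at hand for 47 of the 53 members; PCDHA3, PCDHA13, PCDHB6, PCDHB11, PCDHGA12 and PCDHGC5 had none. CGCT was found on at least 1 strand in 46 of the 47, all but PCDHA9, and in 81.1% of 15766 other protein-coding promoters, so its presence alone is common. The letters around it differed by cluster. GATGTCGCT was in 9 of 13 alpha promoters and in no beta or gamma promoter, against 0.0761% of the others. GTGGCGCT was in 13 of 14 beta promoters only, against 1.45%, and CGCCGCTGT in 9 of 20 gamma promoters only, against 0.641%. These longer strings all contain CGCT and were read off the members' own sequences, so their counts among members only describe them. Both strands were searched for every string. Median GC content was 37.3% in alpha, 40.8% in beta and 42.0% in gamma promoters, against 62.7% in the others. The C-types stood above their clusters, with 66.0% in PCDHAC1, 63.0% in PCDHAC2, 59.0% in PCDHGC3 and 60.7% in PCDHGC4.

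The deposited lists held 169287 to 206757 distinct peaks per library. The background pileup behind them, which stands in for depth because the lists give no read totals, ran from 3.01 to 8.34 and was higher in every Raf-active than in every Raf-inactive library. A list holds only peaks past the authors' threshold, so a missing peak was not called at that depth and is not shown to be closed chromatin. Fibroblast markers had promoter peaks: of 7 such genes with an annotated start, 6 to 7 had one in each library. Of 7 neuronal markers 4 to 5 had a promoter peak, with none at DCX in any library, and of 3 blood markers PTPRC and GATA1 had none in any library. Of the 2 epithelial and 2 endothelial markers with a start, 1 to 2 of each had a promoter peak. The part of other cell types in the results was not tested. Member exons resemble one another closely, and reads that match several members can be lost or misplaced; the mapping settings are not given in the sources used here.

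The 3 clusters differed widely in how many peaks they held. Each cluster was taken from its first gene start to its last gene end plus 10 kb on each side, with each peak counted once by its summit. The alpha cluster (chr5:140786140-141012347 without the flanks) held a mean of 0.875 peaks per library, the beta cluster (chr5:141051374-141249365) 5.06 and the gamma cluster (chr5:141330514-141512975) 35.9. Per 100 kb that was 0.355, 2.32 and 17.7 peaks. Among 451 other protein-coding loci with windows of 200 to 250 kb the median was 8.65 per 100 kb, with 1.11 and 17.6 at the 5th and 95th percentiles. Only 12 of those loci held fewer peaks per 100 kb than alpha and 44 fewer than beta, whereas 430 held fewer than gamma. The gamma window also took in the promoter of TAF7, a general transcription factor gene just before it, and the end of DIAPH1, a formin gene just after it.

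**Figure D1:**
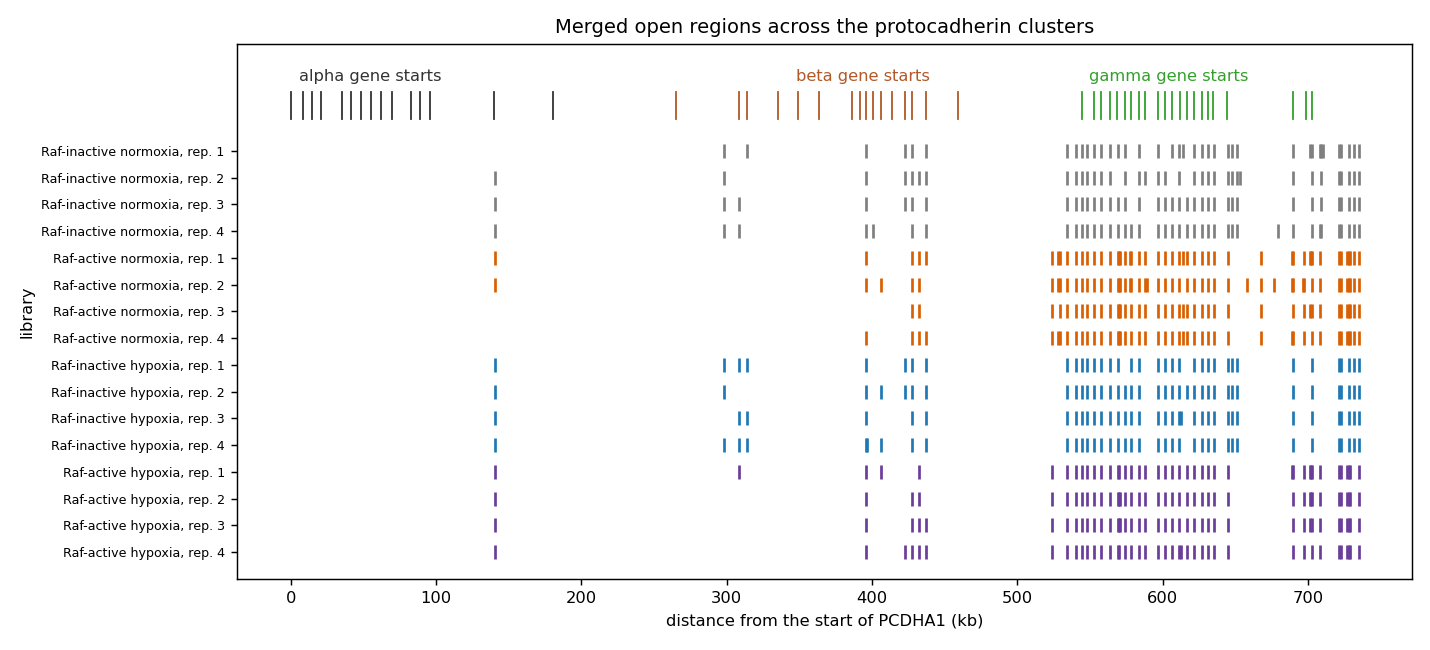
Open regions merged over the 16 peak lists, by library (rows, coloured by group) and distance from the start of PCDHA1 in kb (x axis), with member gene starts as ticks at the top. Alpha holds 1 region, beta a scattered few, and gamma a dense row that recurs in all 16 libraries at 21 places.

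The whole span held 67 merged regions: 1 in alpha, 11 in beta, 52 in gamma and 3 between beta and gamma. Peaks of all 16 libraries met at 21 of them, all in gamma, and 9 came from 1 library only. Over all 355447 merged regions of the genome, 22.2% had peaks of all 16 libraries and 15.9% of 1. The longest stretches with no peak in any library ran from 140927365 to 141084454, 157 kb that hold the starts of PCDHAC2 and PCDHB1, and from 140776140 to 140926276, 150 kb that hold the starts of PCDHA1 to PCDHA13. Another stretch of 81.5 kb, from 141100640 to 141182171, holds 5 beta starts.

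Promoters, defined as 1 kb on each side of the start, are separate places and avoid the overlap of the nested gene bodies. In alpha, PCDHAC1 alone had a promoter peak, in 13 of 16 libraries, and the other 14 members had none in any. In beta, 8 of 16 members had one in some libraries, none in all 16, and 8 in none. In gamma, 14 of 22 had one in all 16 libraries, 7 in some, and PCDHGC4 in none. Of the 15766 other promoters 65.3% had a peak in all 16 libraries and 20.4% in none, against 14 and 23 of the 53 members.

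**Figure D2:**
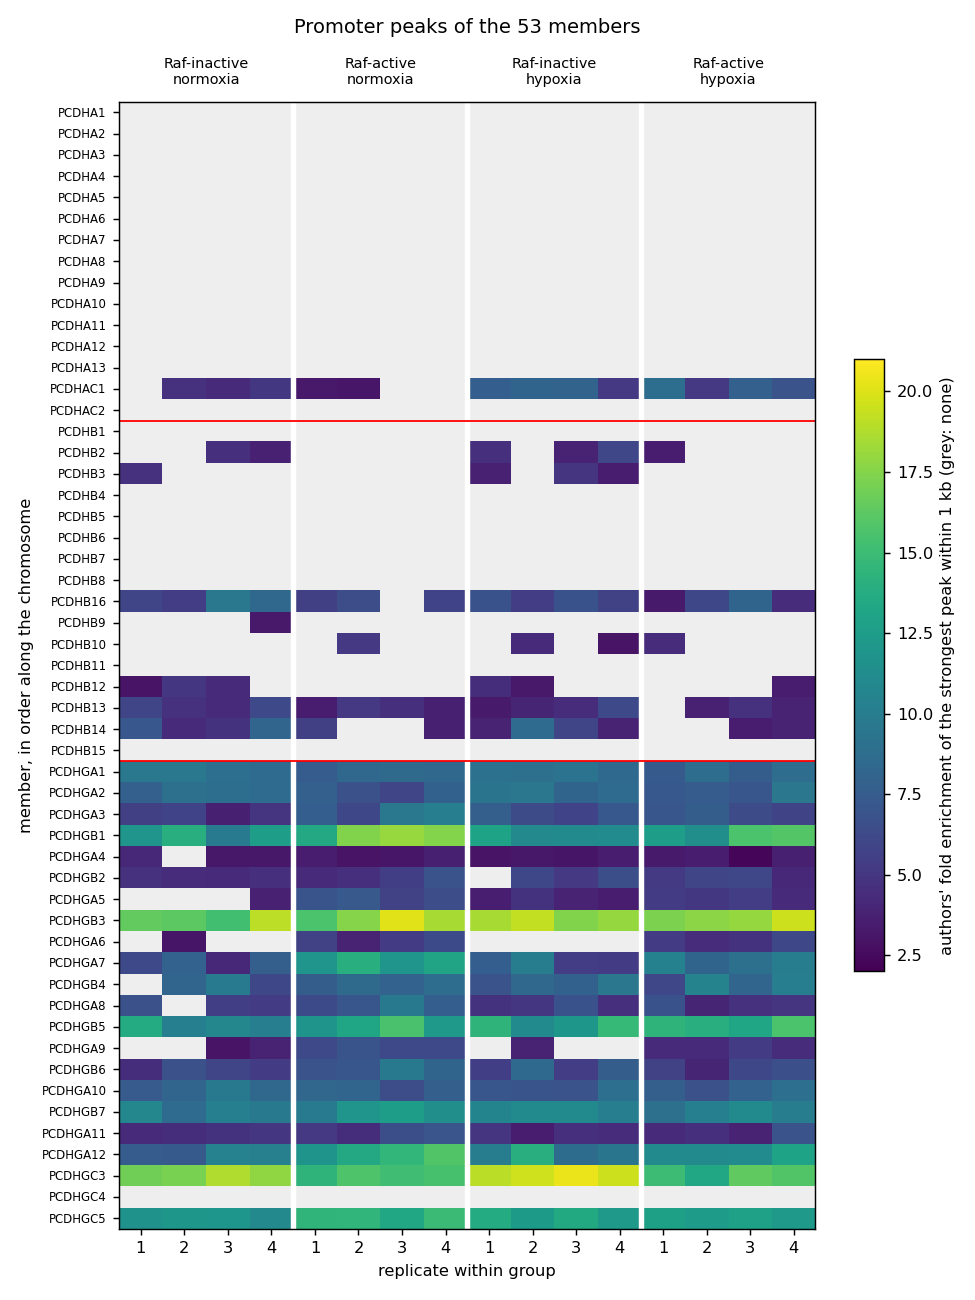
Authors' fold enrichment of the strongest peak within 1 kb of each member's start (colour; grey, no peak), for the 53 members in chromosome order (rows) and 16 libraries by group (columns). Alpha is grey apart from PCDHAC1, beta is patchy and weak, and gamma is filled apart from PCDHGC4, with PCDHGB3 and PCDHGC3 brightest.

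Within gamma the strength of the promoter peaks varied by member, and the same few led nearly every list. Ranked by fold, PCDHGB3 was among the 3 strongest member promoters in all 16 lists and first in 9. Its folds were 15.2 to 20.2 as the authors' peak caller gave them. PCDHGC3, a C-type, was among the 3 strongest by fold in 14 lists and first in 7, with folds of 13.3 to 20.5. Ranked by the peak caller's p instead, PCDHGC3 lay above 92.3% to 97.9% of all peaks in its list. By that measure PCDHGB3 lay above 77.3% to 88.0%, so PCDHGC3 came before it in every list. PCDHGC5, the last C-type, reached folds of 10.9 to 14.9. The neighbouring PCDHGC4 had no promoter peak although its GC content was above that of PCDHGC3. PCDHGA4 was the weakest of those with a peak in at least 15 libraries, at 2.36 to 4.21. Because depth enters these folds, a member was ranked only within a list, and folds of different libraries, here and for the regions, are given to describe each peak, with no change read from them.

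PCDHAC1, at the end of the alpha array, gave a promoter peak that ranked above 7.38% to 54.7% of the peaks in its list by the peak caller's p. Its folds in normoxia were 4.73, 4.36 and 5.11 with Raf inactive (replicates 2, 3 and 4) and 3.33 and 3.13 with Raf active (replicates 1 and 2). In hypoxia it was called in all 8 libraries, with folds of 7.67, 8.14, 8.02 and 5.14 with Raf inactive and 8.87, 5.18, 7.82 and 6.86 with Raf active. The 3 libraries without it were all in normoxia. Because PCDHAC1 held the only alpha region, the alpha cluster counted 0, 1, 1 and 1 peaks in normoxia with Raf inactive and 1, 1, 0 and 0 with Raf active, 1, 1, 1 and 2 in Raf-inactive hypoxia, and 1 in each Raf-active hypoxia library. The groups overlapped in raw numbers, and the cluster fell below the minimum mean of 3 scaled peaks and was not fitted. Scaled, it averaged 0.809 ± 0.540 and 0.444 ± 0.512 in normoxia and 1.40 ± 0.558 and 0.933 ± 0.0165 in hypoxia (SD, n = 4; Raf inactive first). The scaled groups did not overlap for Raf in hypoxia and for hypoxia in both Raf states, with an exact permutation p of 0.0286 each, or 0.0762 adjusted over 16 cluster tests, which misses the threshold. In Raf-active hypoxia every library had 1 peak, as did 3 of 4 in Raf-inactive hypoxia, so those 7 scaled values differ by the scaling factors alone. The normoxia libraries with 1 peak also differed from the hypoxia libraries with 1 peak by the scaling factors alone. With Raf inactive these held 1.06 to 1.09 against 1.11 to 1.14 scaled peaks. With Raf active they held 0.883 to 0.892 against 0.911 to 0.950.

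Peaks in the beta cluster were fewer with Raf active, in normoxia and in hypoxia. The beta cluster held 6, 6, 6 and 6 peaks in normoxia with Raf inactive, and 4, 4, 2 and 4 with Raf active. In hypoxia it held 8, 6, 5 and 8 with Raf inactive and 4, 3, 4 and 5 with Raf active. The groups did not overlap in normoxia and met only at 5 in hypoxia. After scaling each library to the same total over loci, the means were 6.48 ± 0.0646 (SD, n = 4) against 3.13 ± 0.824 in normoxia, and 7.56 ± 1.62 against 3.73 ± 0.755 in hypoxia, and neither pair of groups overlapped (exact permutation p 0.0286 each, the smallest possible, or 0.0762 adjusted over 16 cluster tests). On the scale of log2(scaled peaks + 1), which understates changes of low numbers, beta fell by 0.88 ± 0.16 (SE; limma adjusted p 0.00011) in normoxia. It fell by 0.85 ± 0.16 (limma adjusted p 0.000175) in hypoxia. Such calls were common: 25.9% of all loci fell with Raf in normoxia (63% called) and 26.6% in hypoxia (60.1% called). The median log2 change of all loci was 0.10 in normoxia and 0.05 in hypoxia.

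The fall in beta stood beside the higher background pileup of the Raf-active libraries. With lists thinned to the same background it was -0.92 in normoxia and -0.996 in hypoxia, and without scaling -0.67 and -0.63; each passed the test. With peaks of 5-fold or higher enrichment alone, beta had too few peaks to be fitted. Hypoxia gave differences of 0.18 ± 0.16 in Raf-inactive cells (limma adjusted p 0.5) and 0.21 ± 0.16 in Raf-active cells (adjusted p 0.355), neither past the test. The beta change with Raf differed between the oxygen states by 0.03 ± 0.22 (limma adjusted p 0.943).

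**Figure D3:**
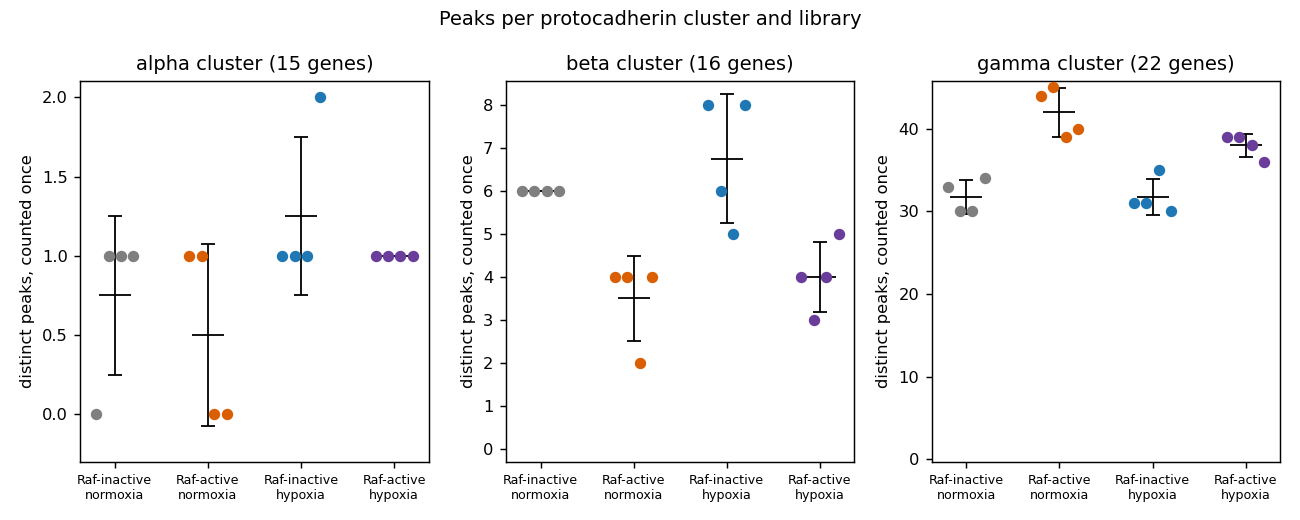
Distinct peaks per library (points) in the alpha, beta and gamma clusters by group, with the mean and SD of 4 replicates (bars); numbers as listed, not scaled. Beta lies at 6 in all 4 Raf-inactive normoxia libraries and at 2 to 4 with Raf active, whereas gamma runs from 30 to 34 against 39 to 45.

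The gamma cluster counted 33, 30, 30 and 34 peaks in normoxia with Raf inactive and 44, 45, 39 and 40 with Raf active, 31, 31, 35 and 30 in Raf-inactive hypoxia and 39, 39, 38 and 36 in Raf-active hypoxia. As listed, every Raf-active library was above every Raf-inactive one, but Raf-active lists were longer throughout. After scaling the means were 34.3 ± 1.94 and 37.8 ± 2.02 in normoxia and 35.6 ± 2.91 and 35.4 ± 1.51 in hypoxia (SD, n = 4). The log2 change with Raf was 0.14 ± 0.07 in normoxia (limma adjusted p 0.107) and -0.01 ± 0.07 in hypoxia (adjusted p 0.956), and neither passed. This result turned on the processing. Unscaled numbers gave 0.39 and 0.25, both past the test, while the median of all loci moved from 0.10 to 0.33 in normoxia and from 0.05 to 0.29 in hypoxia. In that setting gamma lay within 0.1 of the median of all loci.

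With lists thinned to equal background gamma rose by 0.25 in normoxia (limma adjusted p 0.00386), where the median of all loci was 0.11. With peaks of 5-fold or higher enrichment alone gamma rose by 0.36 in normoxia and 0.15 in hypoxia, where those medians were 0.05 and 0.02, so it lay further above the median there. Hypoxia moved gamma by 0.05 ± 0.07 with Raf inactive and by -0.09 ± 0.07 with Raf active, and the Raf change differed between oxygen states by -0.14 ± 0.10 (limma adjusted p 0.353). The whole span moved by 0.09 ± 0.06 with Raf in normoxia and -0.12 ± 0.06 in hypoxia (limma adjusted p 0.23 and 0.13).

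The locus of a single member was its gene body with 10 kb added at either end. Of the 53, only the 22 gamma loci reached the minimum mean of 3 scaled peaks and were fitted with 15118 loci in all; the 15 alpha and 16 beta loci averaged 0 to 2.69 peaks. PCDHB13 was the fullest beta locus and PCDHB1, PCDHB4, PCDHB5, PCDHB6 and PCDHB15 held none. The gamma bodies share their 3′ end and are nested, so their values are not independent: PCDHGA1 at the front repeats the cluster total, and PCDHGC3 and PCDHGC4 held the same peaks. With Raf active in normoxia 7 of the 22 rose and 0 fell, where 37.1% of all loci rose and 25.9% fell (63% called). In hypoxia 3 rose and 0 fell, where 33.5% of all loci rose and 26.6% fell (60.1% called). With these settings the share of the 22 that rose was below that of all loci in both states. The order depended on the setting and the loci share peaks, so no result about the members is read from it. In normoxia 14 of the 22 rose with peaks of 5-fold or higher enrichment alone, where 34.7% of all loci rose. With 50 kb flanks 1 of 31 fitted members rose and 9 fell, where 38.8% and 32.5% of all loci did. The median log2 change of the 22 was 0.14 in normoxia and -0.01 in hypoxia, against 0.10 and 0.05 over all loci. Without Raf-inactive normoxia replicate 3 the normoxia count was 3, and without Raf-active hypoxia replicate 1 the hypoxia count was 1.

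The members called were at the 3′ end and towards the front of the gamma array. The windows of the front loci take in those at the 3′ end, so their calls are not separate results. PCDHGC3 held 11, 9, 8 and 9 peaks in normoxia with Raf inactive and 14, 14, 13 and 14 with Raf active, 9, 8, 9 and 8 in Raf-inactive hypoxia and 15, 13, 12 and 11 in Raf-active hypoxia. Scaled, the groups did not overlap, with 12.4 ± 0.0659 above 9.98 ± 1.36 in normoxia and 11.9 ± 1.63 above 9.54 ± 0.691 in hypoxia (SD, n = 4). PCDHGC3 and PCDHGC4 rose by 0.29 ± 0.10 in both oxygen states (limma adjusted p 0.0138 in normoxia and 0.0172 in hypoxia). PCDHGC5 rose by 0.26 ± 0.09 in normoxia, where its groups overlapped, and by 0.29 ± 0.09 in hypoxia (limma adjusted p 0.0203 and 0.0137). The other called loci rose in normoxia only: PCDHGA5 by 0.24, PCDHGA4 and PCDHGB2, which held the same peaks, by 0.23 and PCDHGB1 by 0.19. Whether the Raf change differed between oxygen states was tested, and no member passed: for PCDHGA5 the difference was -0.19 ± 0.10 (limma adjusted p 0.205).

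Some of these calls ended under other settings. With 0 kb flanks PCDHGC5 changed by -0.042 in normoxia, and with base pairs covered in place of peak number no member was called in hypoxia. With hypoxia no member locus was called: 0 of 22 passed limma in Raf-inactive cells, where 6.01% of all loci rose and 6.79% fell (12.8% called), and 0 of 22 in Raf-active cells, where 13% rose and 14.1% fell (27.1% called). At an unadjusted p below 0.05 the counts were also 0 and 0. The interaction called 0 of 22, against 9.16% of all loci that rose and 9.16% that fell (18.3% called), and 0 at an unadjusted p below 0.05. In Raf-active cells 11 of the 22 fell with lists thinned to equal background, where 12.4% of all loci fell, and 9 fell with peaks of 5-fold or higher enrichment alone, where 13.3% did. PCDHGA8 did not overlap between the groups in Raf-active cells, at -0.15 ± 0.07 (limma adjusted p 0.152).

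**Figure D4:**
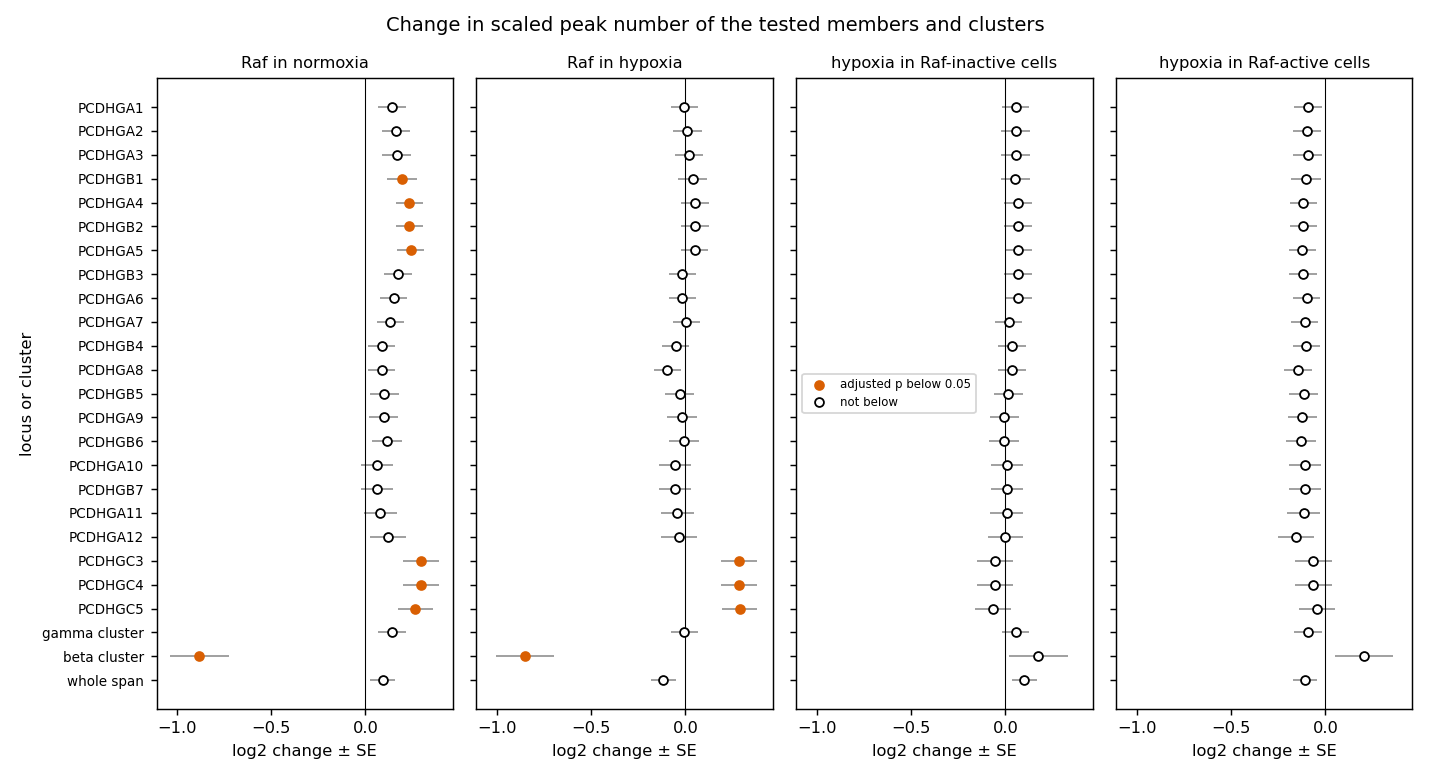
Log2 change in scaled peak number (x axis, ± SE) of the 22 fitted gamma loci, the gamma and beta clusters and the whole span, in the 4 comparisons (panels); filled points have a limma adjusted p below 0.05. Beta lies at -0.88 and -0.85 with Raf, and the gamma loci within 0.3 of 0.

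Promoters with a peak, counted over all 53 members, numbered 22, 22, 25 and 26 in normoxia with Raf inactive and 25, 25, 22 and 24 with Raf active, 25, 26, 25 and 26 in Raf-inactive hypoxia and 25, 24, 25 and 26 in Raf-active hypoxia. The groups overlapped in every comparison, with exact permutation p of 1 and 0.657 for Raf in normoxia and hypoxia, and 0.343 and 0.486 for hypoxia (two-sided, 4 against 4; smallest possible 0.0286). Within this flat total beta and gamma differed in opposite directions, a split made after the values were seen. Beta promoters with a peak numbered 5, 4, 5 and 5 against 3, 3, 1 and 3 with Raf in normoxia, and 6, 5, 5 and 6 against 3, 2, 3 and 4 in hypoxia. Gamma promoters with a peak numbered 17, 17, 19 and 20 against 21 in each Raf-active normoxia library, and 18, 20, 19 and 19 against 21 in each Raf-active hypoxia library. Neither cluster's groups overlapped in either oxygen state, so each of the 4 exact permutation p-values was 0.0286, or 0.0571 after Benjamini-Hochberg adjustment over 8 tests, which misses the 0.05 threshold. The share of other promoters with a peak moved little, from 72.0% to 72.9% with Raf in normoxia and from 72.0% to 74.0% in hypoxia.

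Beta promoter peaks were weak, most of them below 5-fold. With peaks of 5-fold or higher enrichment alone, the beta difference shrank to -0.5 promoters in normoxia (exact p 0.743) and -1.5 in hypoxia (exact p 0.0857), and the gamma difference was 5.25 (exact p 0.0286) and 1.5 (exact p 0.2). PCDHB14 had a promoter peak in 4, 2, 4 and 2 of 4 libraries, in the order Raf-inactive and Raf-active normoxia, then Raf-inactive and Raf-active hypoxia. PCDHB2 followed with 2, 0, 3 and 1, PCDHB3 with 1, 0, 3 and 0, and PCDHB12 with 3, 0, 2 and 1. The steadier beta promoters were PCDHB13, with 4, 4, 4 and 3, and PCDHB16, with 4, 3, 4 and 4. PCDHB13 and PCDHB15, whose windows around CGCT were printed above, both carry GTGGCGCT, and only PCDHB13 had peaks.

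In gamma the largest differences were at 3 members of the A type. PCDHGA6 had a promoter peak in 1 of 4 Raf-inactive normoxia libraries (fold 3.08) and in 0 of 4 in hypoxia, against 4 of 4 with Raf active in both, with folds of 5.69, 3.85, 5.30 and 6.27 in normoxia and 5.27, 4.39, 4.82 and 6.10 in hypoxia. PCDHGA9 had one in 2 and 1 of 4 Raf-inactive libraries in normoxia and hypoxia, against 4 and 4 with Raf active. PCDHGA5 differed in normoxia only, with 1 of 4 against 4 of 4, and had 4 of 4 in both hypoxia groups. In the Raf-active libraries the PCDHGA6 peaks ranked above 28.7% to 48.5% of the peaks in their lists by the peak caller's p.

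Single regions were called gained or lost when all 4 libraries on one side of a comparison had a peak and 0 of 4 on the opposite side did. They were a further view free of nesting. With Raf in normoxia 8 of the 67 regions were gained and 4 lost, where 11.9% and 8.96% of all merged regions were. In hypoxia 8 were gained and 3 lost, against 11.6% and 7.42%. The same 5 regions were gained in both oxygen states, against 5.87% genome-wide, and 2 lost in both, against 4.55%. Hypoxia lost 1 region and gained 0 in Raf-inactive cells, against 1.34% and 1.26%, and lost 3 and gained 0 in Raf-active cells, against 2.58% and 3.11%. At these numbers the shares stood near the genome's.

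The clearest losses lay between the last A-type start, PCDHGA12, and the first gamma C-type start, PCDHGC3, inside the gene bodies of all 19 gamma A and B members. The region chr5:141437198-141437810, 6997 bp after the PCDHGA12 start, had folds of 8.89, 8.52, 13.3 and 11.5 in normoxia and 14.3, 15.3, 14.9 and 17.8 in hypoxia with Raf inactive. It had no peak in any of the 8 Raf-active libraries. Its neighbour chr5:141434022-141434358 had folds of 3.84 to 8.26 in the 8 Raf-inactive libraries and likewise no peak with Raf active. Of the losses seen in both oxygen states these were the only ones, and the promoters on either side, those of PCDHGA12 and PCDHGC3, had peaks in all 16 libraries.

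Gains with Raf in both oxygen states lay before the gamma array, within its front, near the C-types and at its end. The region chr5:141309942-141310568, 20.3 kb before the PCDHGA1 start, had folds of 5.92, 5.66, 6.67 and 5.84 with Raf active in normoxia and 6.93, 8.76, 8.68 and 7.23 with Raf active in hypoxia, and no peak in the 8 Raf-inactive libraries. The region chr5:141356160-141356524, 1321 bp after the PCDHGA4 start, had folds of 4.77 to 8.04 in normoxia and 2.39 to 6.44 in hypoxia. The region chr5:141483308-141483643 lay 1.56 kb before the start of PCDHGC4, the C-type with no called promoter peak, with folds of 4.22 to 6.60 and 3.13 to 5.56. The remaining pair, chr5:141512915-141513419 at the shared gamma end and chr5:141514758-141515137 where DIAPH1 ends, was weaker, with folds of 1.82 to 4.15.

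Of the 9 regions changed in 1 oxygen state only, 6 lay in gamma and 3 lay in beta or just before gamma. The region chr5:141084455-141084748, 10.0 kb before the PCDHB2 start, had a peak in 4, 0, 3 and 0 of 4 libraries in the group order above, with folds of 4.49 to 7.67. The region chr5:141218248-141218610 in PCDHB13 went the other way, with 1, 4, 0 and 4. The region chr5:141315361-141315923, 14.9 kb before PCDHGA1, had a peak in all 4 Raf-active normoxia libraries and in none of the other 12. Whether a region called in 1 oxygen state differed between the states was not tested.

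**Figure D5:**
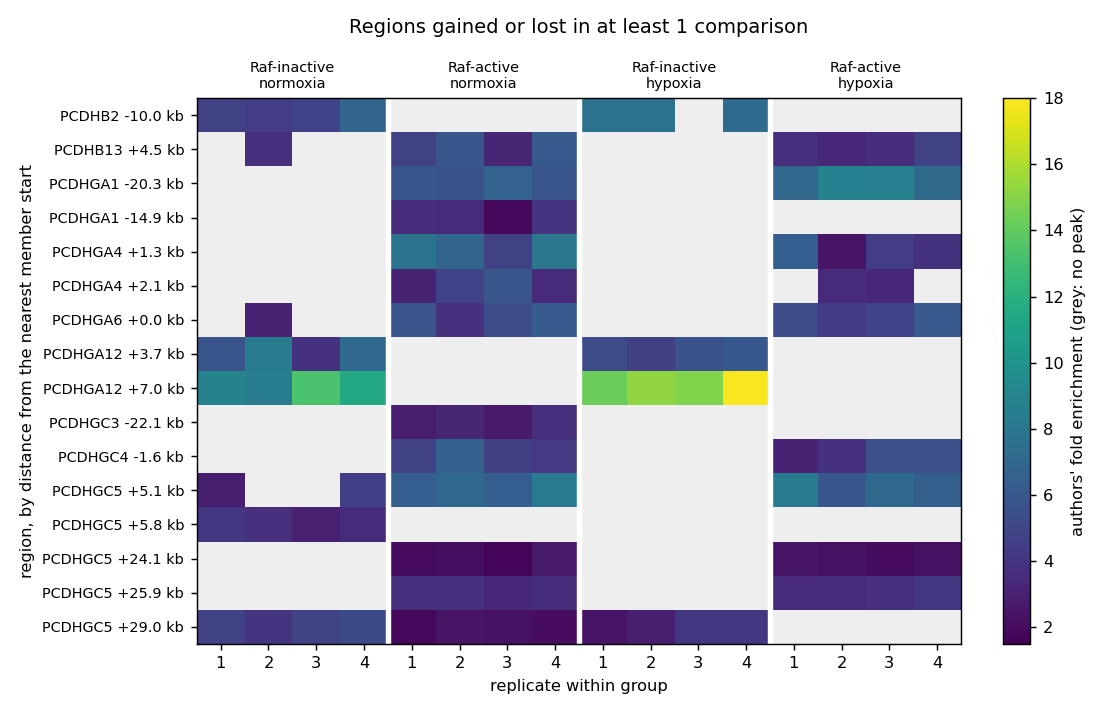
Authors' fold enrichment (colour; grey, no peak) of the 16 regions gained or lost in at least 1 comparison, by library; rows give the distance in kb from the nearest member start. The rows 3.7 and 7.0 kb after PCDHGA12 are filled only in Raf-inactive libraries, and the row 20.3 kb before PCDHGA1 only in Raf-active ones.

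Other genes of the pathway were counted from lists of regulators, relatives, partners and neighbours. Of 20 regulators of the clusters 19 were fitted: 6 rose and 1 fell with Raf in normoxia, where 37.1% of all loci rose and 25.9% fell. In hypoxia 4 rose and 5 fell, where 33.5% and 26.6% of all loci did. The median log2 changes of the 19 were 0.09 and -0.06, against 0.10 and 0.05 over all loci. SETDB1, a histone methyltransferase that silences protocadherin genes, rose by 0.66 ± 0.11 in normoxia, and NIPBL, which loads cohesin, fell by 0.60 ± 0.11 in normoxia and 0.66 ± 0.11 in hypoxia. RAD21, a cohesin subunit, fell by 1.14 ± 0.15 in hypoxia, from 6.73 ± 0.913 to 2.57 ± 0.907 scaled peaks (SD, n = 4). EHMT1, another histone methyltransferase, rose by 1.02 ± 0.07 there, and REST, a repressor of neuronal genes, by 0.53 and 0.69 in the respective oxygen states. CTCF itself gave 0.01 ± 0.15 and -0.08 ± 0.15 and did not pass. The Raf change at RAD21 differed between oxygen states by -0.82 ± 0.21 (limma adjusted p 0.0113), and hypoxia in Raf-active cells lowered it by 1.02 ± 0.15. Of the 19, 1 rose and 2 fell with hypoxia in Raf-inactive cells, where 12.8% of all loci were called, and 0 rose and 3 fell in Raf-active cells, where 27.1% were.

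Of 12 non-clustered protocadherins, which lie outside the clusters and of which PCDH1 and PCDH12 are within 500 kb of them, 5 were fitted. With Raf 1 rose and 2 fell in each oxygen state, where 63% and 60.1% of all loci were called. PCDH9 fell from 63.7 ± 2.81 to 20.5 ± 3.26 scaled peaks in normoxia (log2 change -1.60 ± 0.09) and by 1.21 ± 0.09 in hypoxia, and PCDH7 fell by 1.46 ± 0.09 and by 1.10 ± 0.09. PCDH12, a protocadherin of the endothelium, rose by 0.79 ± 0.15 and 0.89 ± 0.15. Hypoxia raised PCDH7 and PCDH9 in Raf-active cells, by 0.62 and 0.49. Of the 5 fitted, 2 rose and 0 fell there, where 13% of all loci rose and 14.1% fell (27.1% called). In Raf-inactive cells 0 rose and 0 fell, where 12.8% of all loci were called. No gamma locus changed by more than 0.29 in any of the comparisons.

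All 14 partners of the protocadherin cytoplasmic parts, mostly kinases and the WAVE complex that drives actin branching, were fitted. With Raf 4 rose and 7 fell in normoxia, where 63% of all loci were called (37.1% rose, 25.9% fell). In hypoxia 5 rose and 7 fell, where 60.1% were (33.5% rose, 26.6% fell). Median changes were -0.20 and -0.33, against 0.10 and 0.05 over all loci. PDCD10 fell by 1.75 ± 0.11 and fell by 1.69 ± 0.11, and the WAVE subunit WASF1 by 1.26 and 1.09, while BRK1, the smallest WAVE subunit, rose by 1.68 ± 0.14 and 1.06 ± 0.14. With hypoxia 2 of the 14 fell and 0 rose in Raf-inactive cells, where 6.79% of all loci fell, and 6 fell and 1 rose in Raf-active cells, where 14.1% fell.

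Of 32 protein-coding neighbours within 500 kb 29 were fitted: 15 rose and 5 fell with Raf in normoxia, where 37.1% of all loci rose and 25.9% fell, and in hypoxia 7 rose and 7 fell, where 33.5% and 26.6% did. With hypoxia 4 rose and 1 fell in Raf-inactive cells, where 6.01% of all loci rose and 6.79% fell, and 0 rose and 8 fell in Raf-active cells, where 13% and 14.1% did. TAF7, between beta and gamma, went from 3.24 ± 0.0323 to 5.63 ± 0.413 scaled peaks with Raf in normoxia, a rise of 0.64 ± 0.06, and from 3.37 ± 0.0411 to 3.73 ± 0.0658 in hypoxia. Its window includes regions gained before PCDHGA1. HDAC3, a histone deacetylase beyond gamma, fell by 0.61 ± 0.11 and 0.47 ± 0.11, and ANKHD1, before alpha, rose by 0.87 ± 0.11 in normoxia. Neighbouring loci share peaks, and HDAC3 and TAF7 were picked for their place beside the clusters after their values were seen.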

How the data were processed

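The 16 libraries of IMR90 cells, 4 per group, each had 1 peak list. The tools were MACS2, Bowtie2, bedtools, cutadapt, SAMtools, FastQC, Picard and deepTools on hg38, per the submitters' processing notes; versions and settings are not given in the sources used here. The authors called peaks per library, without pooling, and deposited for each a score, the fold enrichment as a ratio, and a -log10 p and a -log10 q (at least 1.30 throughout). Lines with the same interval were counted as 1 peak on chromosomes 1 to 22 and X, placed by the summit. Gene spans and starts came from RefSeq (GRCh38.p14), and 6 members lacking an annotated start used the gene start. Peak numbers per locus were scaled to the same total over loci, taken as log2(number + 1), and loci with a mean of at least 3 were fitted in limma 3.58.1 (R 4.3.3) on all 16 libraries with 4 group means and Benjamini-Hochberg adjustment over every row. The limma step was tested on simulated data. Single counts used exact permutation tests. The background pileup was recovered from fold and p, and peak lists were thinned to the lowest value for 1 alternative. Named were the C-types, the largest called changes, the extremes of each cluster and the members with steady promoter peaks; PCDHB members and regions outside that rule were chosen after their values were seen. Members and lists were chosen with earlier results of these data known, and beta and gamma promoter counts were added after seeing the data. Same-numbered replicates did not deviate together.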

Additional observations from a re-analysis of the deposited data

Results flagged for a closer look

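In groups of 4 libraries, 1 value standing far from the others was found in 10 of 104 groups looked at. Several share the same peaks and some hold small or tied counts, so the number is not set against chance. The alpha cluster and PCDHAC1, which hold the same peak, had 0 scaled peaks in Raf-inactive normoxia replicate 1 (the next library had 1.06) and 2.24 in Raf-inactive hypoxia replicate 4 (next 1.14). The beta cluster had 1.90 in Raf-active normoxia replicate 3 (next 3.53). Raf-inactive hypoxia replicate 3 stood high at 39.9 in the gamma cluster and PCDHGA1 (next 34.7), 37.7 in PCDHGA2 (next 32.4) and 36.5 in PCDHGA3 (next 31.3). PCDHGC5 had 11.4 in Raf-active normoxia replicate 3 (next 10.7). As listed, PCDHGC5 held 12 peaks in each of those 4 libraries, so its scaled values differ by the scaling factors alone.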

How the results depend on the processing

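The fall of beta with Raf kept its direction and passed under every limma alternative in which it could be fitted, at -0.67 to -1.02 in normoxia and -0.60 to -1.16 in hypoxia; leaving out single libraries gave adjusted p of at most 0.000421 and 0.000916. Its exact permutation p of 0.0286 was 0.0762 after adjustment over 16 cluster tests. Other results moved, and the cause was not tested. Member loci called with Raf in normoxia (7) numbered 22 without scaling, 14 at 5-fold or more, 16 at a -log10 q of at least 5, 19 with equal list length, 22 with matched background and 11 of 53 with no filter. All of these rose, and the share of all loci that rose was 56.7%, 34.7%, 36.7%, 39.4%, 38.3% and 32.9% in the same order. With Raf in hypoxia (3) they numbered 20 without scaling, 6 at 5-fold, 1 with 0 kb and 9 with 50 kb flanks, 0 by base pairs and 5 with no filter, where 68.1%, 56.8%, 64.5%, 67.5%, 71.7% and 55.1% of all loci were called. The 9 with 50 kb flanks, of 31 fitted, and 2 of the 5 with no filter fell. With hypoxia in Raf-active cells (0) they numbered 1 without scaling, 9 at 5-fold, 11 with matched background and 1 by base pairs, all falls, where 18.2%, 13.3%, 12.4% and 22.1% of all loci fell. For the interaction (0) they numbered 1 at 5-fold and 7 with matched background, again falls, where 10.3% and 8.19% of all loci fell. The gamma loci are nested and share peaks, so such counts are not independent. Leaving out 1 library gave 3 to 10 and 1 to 3 members for Raf in normoxia and hypoxia. The shares of all loci called in those fits are not given here, so no result is read from these counts.

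Alpha held 0 to 2 listed peaks per library, below the minimum for fitting. Its values here are log2 differences given without a test. With Raf in normoxia alpha was -0.33 with the main settings, -0.76 with equal length and -0.75 with matched background. Hypoxia in Raf-active cells gave 0.49 with the main settings, 1.00 at 5-fold and with equal length, 0.99 matched and 0.90 by base pairs. The alpha interaction was 0.59 with equal length and 0.54 with matched background. Gamma with Raf in normoxia passed without scaling (0.39), at 5-fold (0.36), at the stricter q (0.22), with equal length and matched background (0.25 each), with 0 kb flanks (0.25) and by base pairs (0.12). In hypoxia gamma turned positive without scaling (0.25) and at 5-fold (0.15), and hypoxia in Raf-active cells passed at 5-fold (-0.18). The whole span with Raf in normoxia passed without scaling (0.34), at 5-fold (0.37), at the stricter q, equal length, matched background and 0 kb (0.17 each) and by base pairs (0.12). In hypoxia it passed with 50 kb (-0.17) and no filter (-0.12), and the interaction at 5-fold (-0.31), by base pairs (-0.22) and with no filter (-0.21). The exact permutation test of the whole span in hypoxia gave p 0.0286, or 0.0762 adjusted over 16 cluster tests, which misses the threshold.

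Regions gained and lost were also counted under other rules. The genome-wide shares under those rules are not given here, so no result about the clusters is read from the numbers. With Raf in normoxia, gained and lost regions numbered 4 and 1 at 5-fold. Gained were 14 when 3 of 4 against 1 of 4 sufficed and 5 with matched background. In hypoxia gained were 3 at 5-fold and 5 matched, and lost 6 by the looser rule and 1 at 5-fold. With hypoxia in Raf-inactive cells gained were 2 by the looser rule and lost 0 at 5-fold; in Raf-active cells gained were 1 at 5-fold and 1 matched, and lost 6 by the looser rule, 0 at 5-fold and 1 matched. Single loci that turned sign with Raf in hypoxia without scaling were PCDHGA1 at 0.25 (0.15 at 5-fold), PCDHGA6 and PCDHGB3 at 0.24, PCDHGA10 and PCDHGB7 at 0.20, PCDHGA11 at 0.21, PCDHGB5 at 0.22 and PCDHGB6 at 0.25, and with 50 kb flanks PCDHGC3 at -0.045. PCDHGC5 with Raf in normoxia turned to -0.042 with 0 kb flanks.

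Same-numbered libraries of different groups correlated at -0.0387 to 0.0196 and others at -0.0289 to 0.0246, and 3 of 16 correlated best with their own number. No pairing by number was seen, but correlations this near 0 cannot show whether equal numbers share a culture or batch. The replicate block gave 6 and 3 members called with Raf in normoxia and hypoxia, and beta at -0.88 and -0.85, and changed no cluster's call. The share of all loci called with the block is not given here, so its member counts only describe. Depth limits what can be missed: a peak below the threshold in a shallow list is not listed.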
